A study of Mus musculus with 21 samples.

Results

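Transcripts of mature B cells and of antibody-secreting plasma cells were examined in RNA from sorted mouse marrow progenitors with and without Stag2. The 10 genes were chosen by name among the 30733 rows of the count table. Ms4a1, Cd22, Fcer2a, Faim3 and Cr2 are made by mature B cells. Igj, Sdc1, Pou2af1, Ighm and Igkc, called secretory members here, are made by cells that secrete antibody. Of these, Pou2af1, Ighm and Igkc are made by B cells too. All 10 were found, and all 10 passed the filter on low counts in LSK cells.

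The libraries came from sorted LSK cells, which are stem and multipotent progenitor cells, from granulocyte and monocyte progenitors (GMP) and from erythroid progenitors (CFU-E). Each population was compared between a Stag2 knockout (KO) and wild type (WT), with 3 KO and 4 WT libraries of LSK, 4 KO and 3 WT libraries of GMP, and 4 KO and 3 WT libraries of CFU-E. How Stag2, a subunit of the cohesin ring, was deleted, or at what age, is not given in the sources used here. All marrow was depleted of cells with lineage markers on magnetic beads before the sort. The labels number the libraries but do not say that each came from another animal, so p-values measure the spread between libraries, which may be partly technical.

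A B cell carries its antibody on its surface as a receptor, together with proteins that tune the signal it sends. When it is activated it can become a plasma cell, which loses most of these surface proteins and devotes much of its messenger RNA to immunoglobulin. B-1 cells are a further kind of B cell, common in the body cavities, that make natural IgM. Neither mature B cells nor plasma cells belong to the LSK, GMP or CFU-E gates, and B cells carry a marker that lineage depletion targets in most antibody mixes, whereas plasma cells carry less of it.

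Promoter sequence is shown for members of both kinds, because the secretory members varied together across LSK libraries and the mature B members all stood lower in KO. RefSeq windows of 250 bases before a listed transcript start, in build GRCm38.p6, were found for 7 of the 10 members, 9 windows in all. Ms4a1, Ighm and Igkc have no entry. The windows below run 5′ to 3′ on the strand of the gene, without annotated exons, and capitals mark a match to a searched motif.

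Cd22, chr7:30879029-30879176, minus strand: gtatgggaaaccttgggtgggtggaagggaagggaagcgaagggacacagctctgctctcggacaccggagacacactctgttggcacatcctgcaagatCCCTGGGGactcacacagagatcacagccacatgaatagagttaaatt
Cr2, chr1:195176720-195176969, minus strand: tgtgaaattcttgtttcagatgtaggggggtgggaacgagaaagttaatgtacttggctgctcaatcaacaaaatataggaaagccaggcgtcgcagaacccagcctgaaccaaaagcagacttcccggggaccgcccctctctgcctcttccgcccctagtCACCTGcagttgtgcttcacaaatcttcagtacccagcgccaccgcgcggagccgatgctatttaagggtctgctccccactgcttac
Igj, chr5:88527898-88528147, minus strand: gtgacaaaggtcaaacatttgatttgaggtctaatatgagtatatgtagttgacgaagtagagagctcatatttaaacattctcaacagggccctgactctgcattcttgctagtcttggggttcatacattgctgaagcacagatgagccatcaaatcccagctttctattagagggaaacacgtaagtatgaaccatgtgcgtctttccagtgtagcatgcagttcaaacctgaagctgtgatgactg
Sdc1, chr12:8771146-8771322, plus strand: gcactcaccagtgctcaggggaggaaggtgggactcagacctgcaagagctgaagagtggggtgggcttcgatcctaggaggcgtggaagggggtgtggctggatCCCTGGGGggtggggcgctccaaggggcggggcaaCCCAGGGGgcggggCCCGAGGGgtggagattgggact

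The motifs searched on both strands were CCCNNGGG, the core of the palindrome bound by the B cell factor EBF, the octamer ATGCAAAT, bound by Oct factors together with the product of Pou2af1, and the E-box CAGGTG. No searched motif contains another. CCCNNGGG was found in 2 of the 9 windows and in 11.8% of the 32851 windows of all genes. Cd22 holds 1 match, at -48 to -41 from the listed start, and Sdc1 holds 3, between -145 and -89. The Cd22 start used here lies inside the annotated gene, not at its outermost end. CAGGTG was found in 3 of the 9 windows and in 17.2% of all windows. In Cr2 it lies on the other strand at -88 to -83 and reads CACCTG as printed. ATGCAAAT was found in 0 of the 9 windows and in 1.6% of all. These matches describe letters and say nothing of whether a factor binds.

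LSK libraries held 22813333 to 32196233 counts, GMP libraries 1250683 to 4401993 and CFU-E libraries 3654667 to 5550165. LSK libraries were amplified over full transcripts and the others at their 3′ ends, so levels are compared only within a population. Stag2 was at 79.88, 67.79 and 69.22 CPM (counts scaled to 1000000 per library, with TMM factors) in LSK KO libraries, against 187, 171.3, 148 and 158 CPM in LSK WT libraries. It fell by 1.20 ± 0.128 on the log2 scale (SE; adjusted p = 0.027, edgeR quasi-likelihood test with Benjamini-Hochberg adjustment over 17664 genes). Stag2 also fell in CFU-E (64.2 ± 15.7 CPM in KO and 141 ± 17.7 CPM in WT, SD; adjusted p = 0.0143, edgeR), whereas in GMP its libraries overlapped (adjusted p = 0.36, edgeR). In LSK the call was lost without any 1 KO library (adjusted p = 0.124, 0.151 and 0.132 without KO 1, KO 2 and KO 3) and without WT 3 or WT 4 (0.0657 and 0.0681), with log2 fold changes from -1.27 to -1.14. In CFU-E it was lost without WT 3 (log2 fold change -0.85 ± 0.306, adjusted p = 0.703, edgeR). GMP and CFU-E reads come from the 3′ end. How Stag2 was deleted is not given, so whether these reads cover the deleted part was not tested.

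Of the LSK libraries, 3 stood apart in their immunoglobulin content. The 153 immunoglobulin rows took 1.416%, 9.953% and 2.851% of all counts in KO 1, KO 2 and KO 3, against 0.5318%, 3.489%, 7.787% and 3.528% in WT 1 to WT 4. KO 2 and WT 3 were thus the richest and WT 1 the poorest, and each genotype had a rich library. In GMP the share was at most 0.002878%, and in CFU-E at most 0.0004715%. Results that rest on these libraries are given with and without them.

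The mature B transcripts were lower in every LSK KO library than in any WT library. Ms4a1 encodes CD20, a surface protein of B cells. It was at 7.3, 7.571 and 7.389 CPM in KO libraries, against 12.26, 47.33, 19.32 and 30.24 CPM in WT libraries. The KO libraries lay close together and the WT libraries spread widely, with WT 1 nearest to the KO. The log2 fold change of KO over WT was -1.88 ± 0.418 (SE; adjusted p = 0.218, edgeR).

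Cd22 encodes a lectin that dampens the B cell receptor. It was at 1.84, 3.196 and 5.472 CPM in KO libraries, against 9.814, 31.82, 18.57 and 25.66 CPM in WT libraries, without overlap (log2 fold change -2.62 ± 0.487, adjusted p = 0.155, edgeR). Fcer2a encodes CD23, the low-affinity IgE receptor of follicular B cells. It was at 0.9496, 0.9131 and 2.649 CPM in KO libraries, against 5.836, 20.31, 8.859 and 12.28 CPM in WT libraries. KO 3 was the highest of the KO libraries for both genes, and WT 2 the highest and WT 1 the lowest of the WT libraries. Fcer2a had the most negative log2 fold change of the 10 members, -2.97 ± 0.554 (adjusted p = 0.155, edgeR).

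Faim3, now called Fcmr, encodes the receptor for the Fc part of IgM. It was at 2.018, 3.804 and 2.858 CPM in KO libraries, against 7.63, 22.43, 13.83 and 16.37 CPM in WT libraries (log2 fold change -2.38 ± 0.393, adjusted p = 0.131, edgeR). Cr2 encodes complement receptor CD21, high on marginal zone and follicular B cells. It was at 1.157, 1.179 and 2.126 CPM in KO libraries, against 5.054, 6.171, 4.609 and 3.97 CPM in WT libraries. Its WT libraries were the closest together of the 5 genes, with WT 1 second highest rather than lowest, and its log2 fold change was -1.73 ± 0.312 (adjusted p = 0.146, edgeR).

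**Figure D1:**
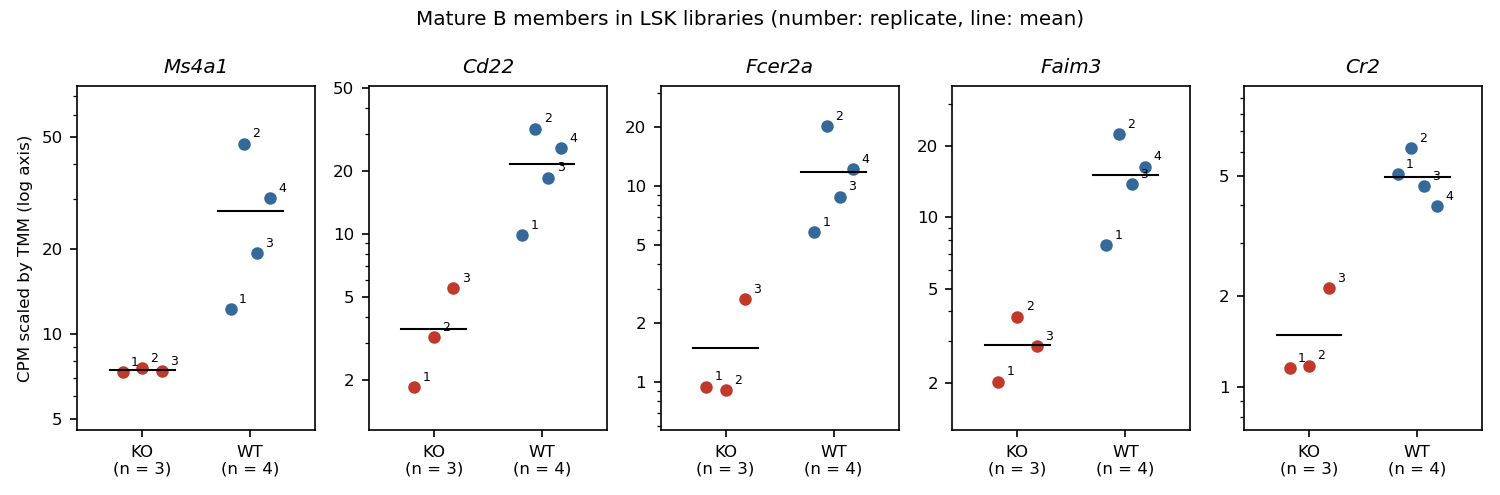
CPM scaled by TMM, on a log axis, of the 5 mature B members in LSK libraries. Each point is a library with its replicate number, KO (red, n = 3) left of WT (blue, n = 4), and each line is the arithmetic mean; for every gene the highest KO library lies below the lowest WT library.

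All 5 mature B members had every KO library below every WT library, as did 4.63% of the 17664 genes tested. All 5 were lower at an unadjusted p under 0.05, against 5.29% of all genes. With adjustment over all genes edgeR called 0 of the 10 members, where it called 0.0793% of all genes, 14 in number. DESeq2 called all 5 as lower (adjusted p from 6.42e-08 to 0.00025), where it called 1.45% of all genes lower. With no filter on low counts edgeR called 3 as lower, Cd22, Fcer2a and Faim3, against 0.0894% of all genes. The 5 genes were read in the same 7 libraries and are not 5 separate tests of the genotype.

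The mature B calls depended on a WT library. Without WT 1, edgeR called 4 of the 5, namely Faim3 (adjusted p = 0.0154), Cd22 (0.0278), Ms4a1 (0.0308) and Fcer2a (0.0352), but not Cr2 (0.0787), where 0.534% of all genes were called lower. Over the 7 fits that each leave out 1 library, the log2 fold change stayed between -2.12 and -1.49 for Ms4a1, -3.09 and -2.30 for Cd22, -3.65 and -2.59 for Fcer2a, -2.61 and -2.14 for Faim3, and -2.07 and -1.57 for Cr2. KO 2 and WT 3 were also both left out, a choice made with the values seen. EdgeR then called 0 of the 5, and the value for Faim3 was -2.65 ± 0.508 (adjusted p = 0.586). In bulk RNA, fewer cells of a type and less RNA per cell cannot be told apart.

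The secretory members showed no such separation. Their KO and WT libraries overlapped for all 5 genes, and KO 2 and WT 3 were the highest and WT 1 the lowest for each. Igj, now called Jchain, encodes the chain that joins IgM and IgA units. It was at 1107, 4003 and 1176 CPM in KO libraries, against 449.5, 2040, 3446 and 2571 CPM in WT libraries. The log2 fold change was -0.021 ± 0.655 (adjusted p = 0.994, edgeR), much smaller than its error.

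Ighm encodes the constant part of the IgM heavy chain and was the most abundant member in CPM in KO libraries. It was at 4845, 58959 and 12566 CPM in KO libraries, against 1263, 10370, 30294 and 11108 CPM in WT libraries. KO 2 alone held more Ighm than the other 2 KO libraries together, and WT 3 more than the other 3 WT libraries together. The log2 fold change was 0.94 ± 0.986 (adjusted p = 0.888, edgeR), and without KO 2 it was -0.61. Igkc, the constant part of the kappa light chain, was at 4295, 27105 and 8436 CPM in KO libraries, against 1899, 11547, 25676 and 11575 CPM in WT libraries. It followed the same order as Igj, and its log2 fold change was 0.067 ± 0.801 (adjusted p = 0.986, edgeR), or -0.99 without KO 2.

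Sdc1 encodes CD138, the surface proteoglycan by which plasma cells are sorted, though epithelial cells make it too. It was at 16.38, 145.9 and 34.61 CPM in KO libraries, against 13.34, 30.4, 84.24 and 30.41 CPM in WT libraries (log2 fold change 0.73 ± 0.762, adjusted p = 0.888, edgeR). Pou2af1 encodes the coactivator that works with Oct factors at octamer sites in B and plasma cells. It was at 11.9, 90.89 and 19.45 CPM in KO libraries, against 7.14, 26.1, 68.71 and 21.69 CPM in WT libraries (log2 fold change 0.40 ± 0.81, adjusted p = 0.925, edgeR). Without KO 2, the richest KO library, these log2 fold changes were -0.64 for Sdc1 and -0.98 for Pou2af1. Without both KO 2 and WT 3, a choice made with the values seen, they were 0.057 ± 0.445 and -0.21 ± 0.528.

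**Figure D2:**
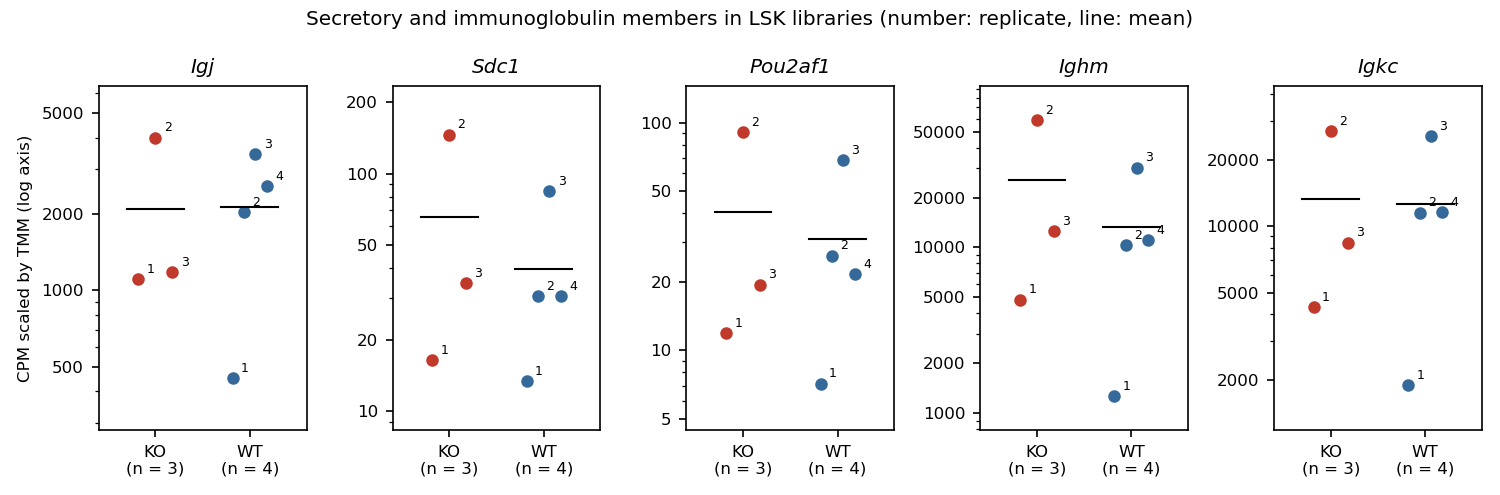
CPM scaled by TMM, on a log axis, of the 5 secretory and immunoglobulin members in LSK libraries. Points are libraries with their replicate numbers, KO (red, n = 3) left of WT (blue, n = 4), and lines are arithmetic means; KO 2 and WT 3 are the top libraries and WT 1 the bottom one in each panel.

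Levels of different genes were compared per kilobase of annotated exon, in CPM per kb. Igkc led with 24960 in KO and 23824 in WT, followed by Ighm with 13498 and 7030, and Igj with 832 in KO and 845 in WT. Sdc1 was at 17.2 in KO and 10.4 in WT, and Pou2af1 at 16 and 12.1. The mature B members had lower means, from Faim3 with 1.67 in KO and 8.68 in WT down to Cr2 with 0.183 in KO and 0.61 in WT. Igkc, Ighm and Igj lay in this order, above every other member, in all 7 libraries. In KO 1 to KO 3 Faim3, at 1.16, 2.19 and 1.65, lay below Sdc1, at 4.3, 38.3 and 9.09. In WT 1 to WT 4 Faim3 was at 4.39, 12.9, 7.97 and 9.43 and Sdc1 at 3.5, 7.98, 22.1 and 7.98. Faim3 thus exceeded Sdc1, and also Pou2af1, in every WT library except WT 3.

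The correlation among the members was computed over the 7 LSK libraries on log2(CPM + 1), as 45 pairs with exact two-sided permutation p-values adjusted over those pairs. The 10 pairs within the secretory members had a median Pearson r of 0.95, from 0.86 to 0.98, and a median Spearman rho of 0.89, at least 0.86 for every pair. All 10 passed for r, with adjusted p from 0.00893 to 0.0293 (exact permutation), and 8 of 10 passed for rho. The adjustment also covered the 10 mature B pairs, whose small pooled p-values hold the difference between the genotypes. An adjustment without those pairs was not made, and fewer secretory pairs could then pass for rho. Without the 2 libraries farthest from the median of the first gene, KO 2 with WT 1 or WT 3 in all 10, the median r was 0.93, from 0.76 to 0.99. As deviations from the mean of each genotype, the median r was 0.97 and the lowest 0.87.

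The 25 pairs of a mature B with a secretory member had a median pooled r of 0.04, from -0.31 to 0.30, and a median rho of 0.00. None of the 25 passed for r, adjusted or unadjusted, by the exact permutation test. With KO 2 left out the median was 0.43, and as deviations from the genotype mean it was 0.36, from -0.32 to 0.78, with 20 of 25 positive. Faim3 had the highest such values, 0.78 with Igj and 0.77 with Igkc, while Cr2 was negative with all 5. With only 7 libraries these values do not show whether the groups of genes vary together within a genotype.

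KO and WT did not overlap for any mature B member, so no pooled correlation is given for their 10 pairs. As deviations from the genotype mean, r had a median of 0.78, from 0.17 to 0.93, and was positive in all 10. Cd22 with Fcer2a had 0.93, Ms4a1 with Faim3 0.89 and Cd22 with Faim3 0.86, while the 3 lowest pairs, Cr2 with Faim3, Ms4a1 and Cd22, had 0.17, 0.22 and 0.46. In all, 4 of 10 had an unadjusted p under 0.05 and 0 passed after adjustment (exact permutation within genotype, smallest possible p 0.00694). Of the secretory pairs, 10 of 10 had an unadjusted p under 0.05 within genotype and 0 passed after adjustment (smallest adjusted p = 0.0521, exact permutation).

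**Figure D3:**
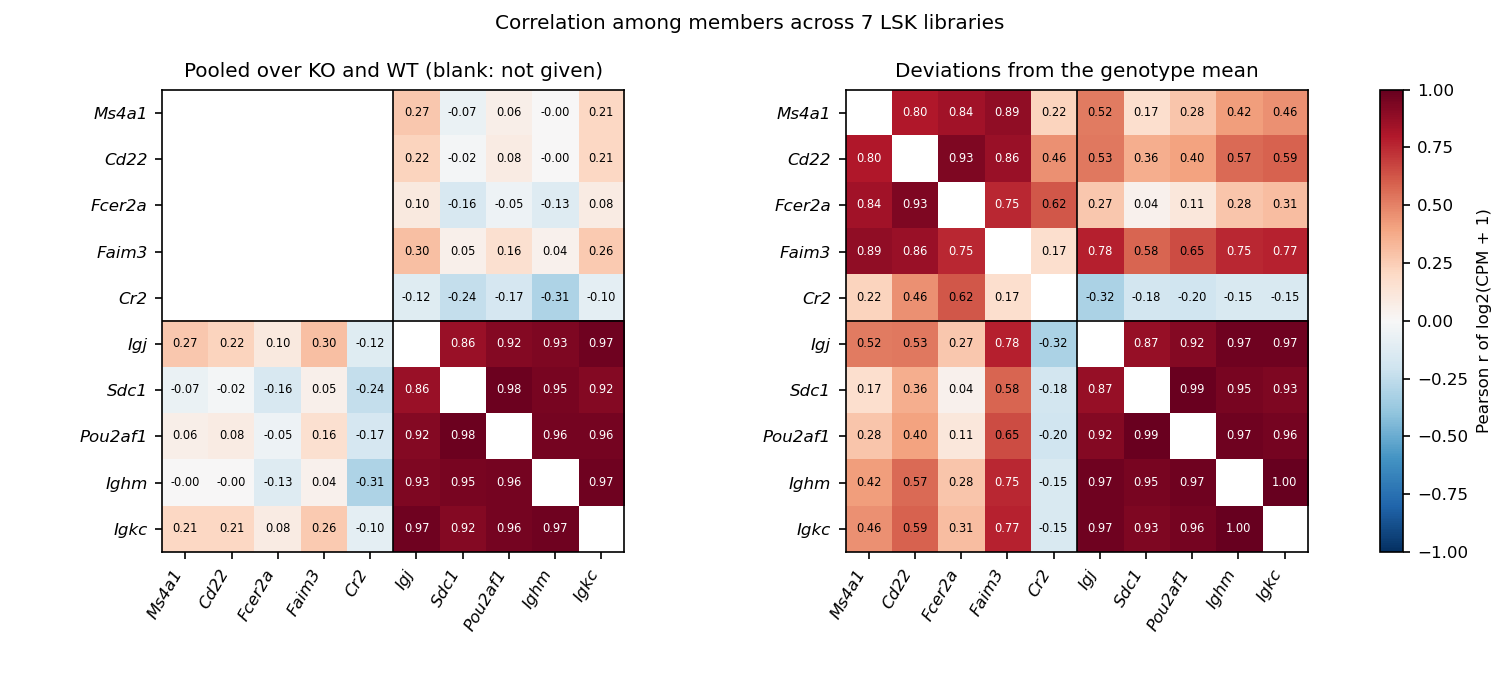
Pearson r of log2(CPM + 1) between members over 7 LSK libraries, pooled over KO and WT (left; blank where both genes separate KO from WT) and as deviations from the genotype mean (right). The secretory block runs from 0.86 to 0.98 on the left, and the block between the groups from -0.31 to 0.30.

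The plot of Cd22 against Ighm shows the same libraries in a pair of genes. KO 2 held the most Ighm and little Cd22, 54.2 Cd22 counts per 1000000 Ighm counts, against 380 in KO 1 and 435 in KO 3. The WT libraries held 7768, 3068, 613 and 2310 in WT 1 to WT 4. All KO values lay below all WT values, and WT 3 came nearest to the KO. Per 1000 Igj counts, Ms4a1 had 6.6, 1.89 and 6.28 counts in KO libraries, against 27.3, 23.2, 5.61 and 11.8 counts in WT libraries, and here WT 3 lay within the KO range.

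**Figure D4:**
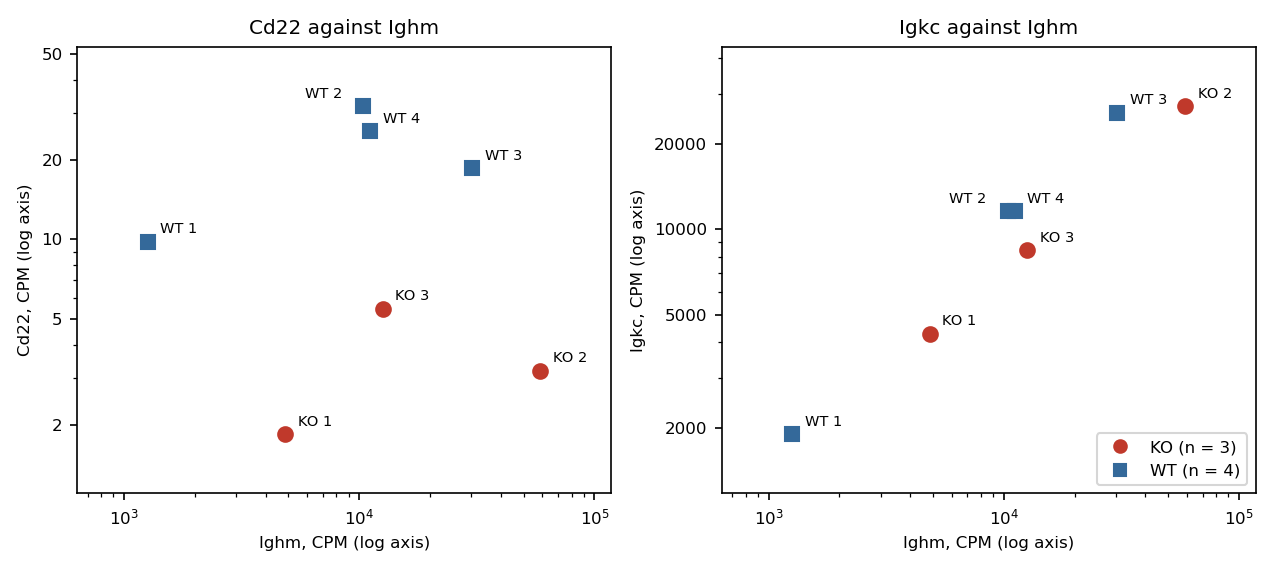
Cd22 against Ighm (left) and Igkc against Ighm (right) in CPM on log axes, 1 point per LSK library, KO (red circles, n = 3) and WT (blue squares, n = 4). Igkc climbs with Ighm over both genotypes, whereas at like levels of Ighm, as in KO 3 with 12566 CPM and WT 4 with 11108 CPM, Cd22 was at 5.472 and 25.66 CPM.

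Among 10110 other genes with a mean of at least 5 CPM in LSK, those most like Cd22 over the 7 libraries were Icosl (r = 0.990), Kcnh7 (0.987), Rab32 (0.986), Limd2 (0.983) and Ebf1 (0.982). Icosl encodes a costimulatory ligand of B cells and other antigen-presenting cells, and ran from 5.282 to 9.864 CPM over KO libraries, against 13.24 to 22.47 CPM over WT libraries. KO and WT did not overlap for any of these 5 genes, so r holds the difference between the genotypes as well as the spread within them. Those most like Igj were Ctss (0.985), Tnfrsf17 (0.984), Mnda (0.980), Eaf2 (0.975) and Oosp1 (0.972). Tnfrsf17 encodes BCMA, a survival receptor of plasma cells, and ran from 2.077 to 13.35 CPM over KO libraries, against 0.7499 to 9.153 CPM over WT libraries. Ctss encodes cathepsin S, a protease of antigen processing. All 5 genes like Igj overlapped between KO and WT.

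Among the constant rows counted, the immunoglobulin in LSK was mostly IgM with kappa light chains. The heavy chain rows were Ighm, Ighg, Ighg1 and Ighg2c, and the light chain rows Igkc, Iglc2 and Iglc3. No row found in the table was named for IgA, so IgA has no part in these shares. Ighm made up 97.82%, 99.81% and 99.45% of heavy chain constant counts in KO 1 to KO 3, against 78.68%, 95.35%, 92.99% and 98.23% in WT 1 to WT 4. Kappa made up 95.54% to 99.34% of light chain constant counts in KO libraries and 95.79% to 98.25% in WT libraries. The row named Ighg was at 60.8, 111.7 and 68.6 CPM in KO libraries, against 341.9, 398.5, 1827 and 85.53 CPM in WT libraries. Its libraries overlapped through WT 4 (log2 fold change -3.05 ± 0.909, adjusted p = 0.388, edgeR).

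Among the variable rows of the count table, the same pair of segments ranked first in 6 of the 7 LSK libraries. Ighv11-2 and Igkv14-126 are known as the pair in many B-1 cell antibodies to phosphatidylcholine in the mouse. Igkv14-126 took 28%, 27.4% and 69.7% of the counts over 100 kappa variable rows in KO libraries, against 0.111%, 57.5%, 75.5% and 60.3% in WT libraries. Ighv11-2 took 75.5%, 62.3% and 85.8% of the counts over 37 heavy variable rows in KO libraries, against 0.538%, 65.5%, 93.5% and 93.7% in WT libraries. Both were the top segment of their kind in every library except WT 1.

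WT 1 had 28 of 25275 kappa variable counts in Igkv14-126 (95% Wilson interval 0.0767% to 0.16%) and 4 of 744 heavy variable counts in Ighv11-2 (0.209% to 1.37%). Its top segments were Igkv2-137 with 17.7% and Ighv1-12 with 34.4%. Second segments differed between libraries, with Igkv4-55 at 25.6% in KO 1 and Igkv5-39 at 24.9% in KO 2. Reads from near-identical variable genes could be split or lost in counting, so these shares are uncertain, and the intervals cover counting error only. The shares are also of the listed rows alone. In KO 1 the 37 heavy variable rows held 6286 counts beside 163265 in Ighm. The 100 kappa variable rows held 57321 counts beside 144721 in Igkc. Heavy segments without a row have no part in the shares, so the share of Ighv11-2 among all heavy segments is not known. In CPM, KO and WT overlapped for Igkv14-126 (log2 fold change -0.86 ± 1.57, adjusted p = 0.922, edgeR) and for Ighv11-2 (-0.27 ± 1.58, adjusted p = 0.972).

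**Figure D5:**
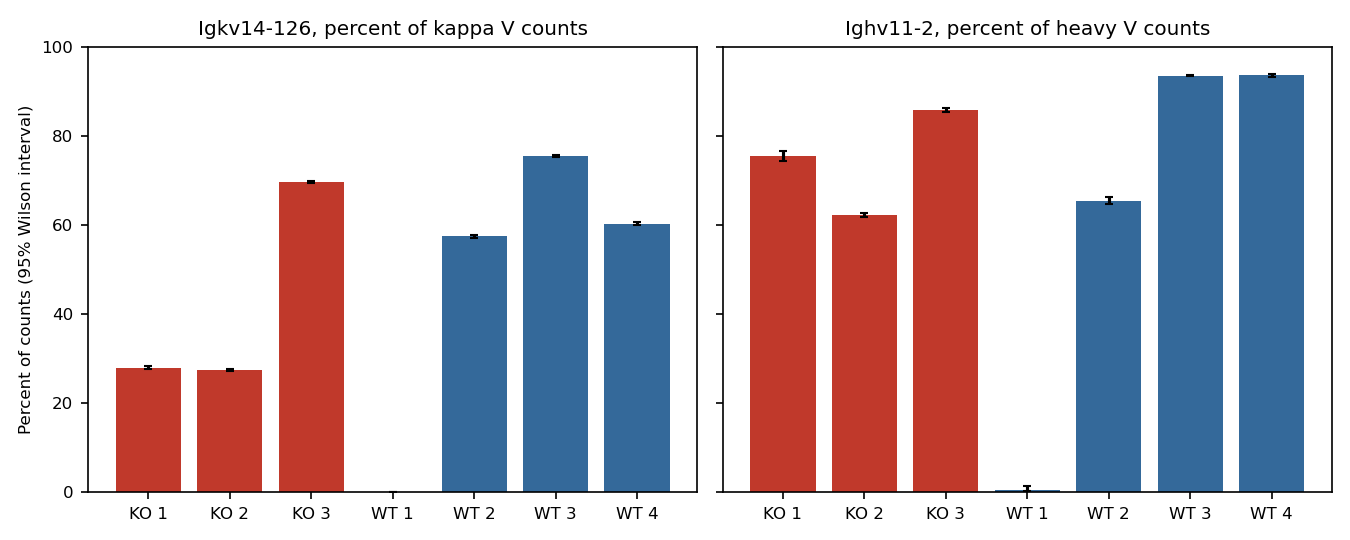
Share of counts over 100 kappa variable rows in Igkv14-126 (left) and over 37 heavy variable rows in Ighv11-2 (right), in percent. Bars are 3 KO (red) and 4 WT (blue) LSK libraries, with 95% Wilson intervals that cover counting error only. WT 1 is at 0.111% and 0.538%, and the other libraries at 27.4% to 75.5% and 62.3% to 93.7%.

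Other B cell genes were read from lists beside the members. Of 22 genes of the B cell receptor and surface, 9 were lower and 1 higher in KO at an unadjusted p under 0.05, against 5.29% lower and 2.59% higher of all genes. Of the 22, 8 had every KO library below every WT library, against 4.63% of all genes. Their median log2 fold change was -0.46, against 0.00 over all genes. Siglecg, an inhibitory lectin of B cells, was at 13.3 ± 3.82 CPM in KO and 44.2 ± 16.6 CPM in WT, and Blk, a kinase of the B cell receptor, at 0.804 ± 0.531 CPM in KO and 4.18 ± 1.53 CPM in WT (adjusted p = 0.188 and 0.242, edgeR).

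Of 10 B cell transcription factors, 4 were lower at an unadjusted p under 0.05, against 5.29% of all genes, with a median of -0.48. Ebf1, needed to commit to the B lineage, was at 1.09 ± 0.385 CPM in KO and 8.13 ± 4.2 CPM in WT (log2 fold change -2.89, adjusted p = 0.146, edgeR). Pax5, which holds B cell identity, was at 0.422 ± 0.121 CPM in KO and 1.61 ± 0.9 CPM in WT (-1.93, adjusted p = 0.281), and Spib at 1.39 ± 0.406 CPM in KO and 5.09 ± 1.84 CPM in WT (-1.87, adjusted p = 0.188). In these 3 of the 10, every KO library lay below every WT library, against 4.63% of all genes. EdgeR called 0 genes of either list. DESeq2 called 8 of the surface genes and 3 of the factors, all lower, against 1.45% of all genes. Without WT 1 edgeR called 3 and 2, against 0.534% of all genes called lower.

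Of 11 tested genes of pro-B and pre-B cells, 4 were lower at an unadjusted p under 0.05, against 5.29% of all genes. Their median was -0.56, with 8 negative and 3 positive log2 fold changes, and 0 had separate KO and WT libraries. The summed level of all 12 listed genes went the other way, at 946.3 to 1207 CPM in KO and 873.4 to 996.1 CPM in WT, with overlap. The genes named next have the smallest p and add little to that sum. Vpreb3 was at 0.766 ± 0.16 CPM in KO and 2.55 ± 1.14 CPM in WT (log2 fold change -1.72, adjusted p = 0.329, edgeR). Il7r, the interleukin-7 receptor of early lymphoid cells, was at 1.49 ± 0.72 CPM in KO and 4.7 ± 2.52 CPM in WT (-1.66, adjusted p = 0.497). EdgeR called 0 of these genes and DESeq2 called 1 as lower, against 1.45% of all genes.

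Of 23 plasma cell genes, many of them folding and export factors that other cells use too, 0 differed at an unadjusted p under 0.05 and 0 were called by edgeR or DESeq2. Their median log2 fold change was 0.08. Sel1l, part of the machinery that removes misfolded proteins, was at 243 ± 133 CPM in KO and 180 ± 61.7 CPM in WT, with overlapping libraries. The summed level of the list was 4332 to 6938 CPM in KO and 4744 to 6292 CPM in WT.

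Some markers of other blood cell types were also lower in KO. The summed level of 9 late neutrophil genes was 730.2 to 1801 CPM in KO and 381.7 to 8783 CPM in WT, highest in WT 2 with 8783 and WT 4 with 4658, the libraries that were also highest for Ms4a1 and Cd22. WT 1, at 381.7 CPM, lay below every KO library. All 9 had negative log2 fold changes, with a median of -1.73, or -0.62 without WT 2. Of the 9, 2 were lower at an unadjusted p under 0.05, against 5.29% of all genes. For 0 of the 9 did every KO library lie below every WT library. Of 11 tested monocyte and macrophage genes, 8 were lower at an unadjusted p under 0.05, against 5.29% of all genes. Their median was -1.55, with sums of 564.8 to 994.7 CPM in KO and 624.1 to 2648 CPM in WT. Of the monocyte genes, 4 had every KO library below every WT library, against 4.63% of all genes. EdgeR called 0 genes of either list. DESeq2 called 4 of the monocyte genes as lower, C1qb, C1qc, F13a1 and Ms4a6c, and 0 of the neutrophil genes. EdgeR without WT 1 called 2 and 0. These fits called 1.45% and 0.534% of all genes lower. No defining marker of these lists was at 0 in all LSK libraries.

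The remaining lists held markers further from the B lineage. T and NK cell genes summed to 344.6 to 467.4 CPM in KO and 424 to 698.1 CPM in WT, with a median log2 fold change of -0.59 and 2 of 15 genes lower and 1 higher at an unadjusted p under 0.05, against 5.29% lower and 2.59% higher of all genes. DESeq2 called 1 of them lower and 1 higher, against 257 lower and 85 higher of 17664 genes. For 8 plasmacytoid dendritic genes the median was -0.06, with 4 negative and 4 positive. At an unadjusted p under 0.05, 3 were lower and 1 higher, against 5.29% lower and 2.59% higher of all genes. KO libraries all lay below WT for 2 of the 8 and above for 1, against 818 and 576 of 17664 genes. Their sum was 205.3 to 433.9 CPM in KO and 181.6 to 268.7 CPM in WT. The 4 tested erythroid genes had a median of 0.03, and all 7 listed summed to at most 26.26 CPM in KO and 19.03 CPM in WT. The sum of 10 LSK identity genes, Kit and Ly6a among them, was 2629 to 2999 CPM in KO and 2048 to 2923 CPM in WT. The median log2 fold change of these 10 was -0.08. At an unadjusted p under 0.05, 2 were lower and 2 higher, against 5.29% lower and 2.59% higher of all genes. KO libraries all lay below WT for 2 and above for 1, against 818 and 576 of 17664 genes. Kit and Ly6a were not among the genes in these counts. Their KO and WT libraries overlapped (unadjusted p = 0.805 and 0.233, edgeR), so they do not stand for the whole list. DESeq2 called 1 of the 10 lower, where it called 1.45% of all genes lower. The part of these cell types in the mature B results was not tested.

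GMP and CFU-E held few reads of the members. In GMP 1 of the 10 passed the filter, Ighm, with 30, 41, 62 and 45 counts in KO libraries against 40, 30 and 44 counts in WT libraries. Ighm averaged 16.8 ± 4.55 CPM in KO and 9.88 ± 1.58 CPM in WT (SD), with overlap (log2 fold change 0.73 ± 0.3, adjusted p = 0.223, edgeR, where 1.45% of genes were called). Igkc had 5 counts over the 4 KO and 8 counts over the 3 WT libraries of GMP, and Igj 21 counts in KO and 27 in WT. Ighm was thus the main immunoglobulin member in GMP, without Igkc at a like count.

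Cr2 had 3, 13, 3 and 29 counts in GMP KO libraries and 4, 1 and 2 counts in GMP WT libraries, and Ms4a1 had 0, 1, 0 and 0 counts in KO and 3, 2 and 3 counts in WT. Neither passed the filter in GMP. With no filter on low counts edgeR called Cr2 as higher in GMP KO (log2 fold change 2.71 ± 0.701, adjusted p = 0.00745), where 1.68% of all genes were called higher. KO 2 and KO 4 held most of these counts, and KO 3 lay within the WT range. Cr2 passed the filter when any 1 WT library was left out, and was then not called (log2 fold change 2.45 to 3.23, adjusted p from 0.102 to 0.385, edgeR). In CFU-E, Cr2 and Sdc1 passed, at 2.14 ± 0.936 and 2.93 ± 2.09 CPM in KO against 2.51 ± 2.01 and 2.06 ± 0.674 CPM in WT. Neither was called (adjusted p = 0.947 and 0.977, edgeR, where 1.06% of genes were called). Faim3 had 0 counts in all 14 GMP and CFU-E libraries, which allows up to 3 counts in each, or 0.541 to 2.4 CPM.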

How the data were processed

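Stag2 KO and WT libraries of LSK, GMP and CFU-E cells (21 libraries) were compared. The authors deposited raw counts per gene. STAR 2.4, HTSeq 0.6.1, DESeq2 and build mm9 are named in the submitters' processing notes. Neither annotation nor strand setting is stated in what was used here, which leaves overlapping genes and immunoglobulin families uncertain. Of 30733 genes, 82 had no count.

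Each population was fitted alone with edgeR 4.0.16 in R 4.3.3 (filterByExpr with a minimum count of 10 and total of 15, TMM, quasi-likelihood F test, Benjamini-Hochberg adjusted p under 0.05), and CFU-E had a flow cell term. CPM values are scaled by TMM. DESeq2 1.42.0 and the other alternatives were run on the same counts, and the tests were tried on simulated data. The members and lists were chosen with earlier results of these data known. Always named were the members and Stag2; then the 5 genes most like Cd22 and Igj by r, up to 4 genes with the smallest p per list, and immunoglobulin rows. Gene lengths come from GENCODE release M21. Kit and Ly6a were named as examples of their list. Of the genes this rule selects, 1 is not reported here.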

Additional observations from a re-analysis of the deposited data

How the results depend on the processing

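Of the 10 members, edgeR called 0 in LSK; DESeq2 called 5, edgeR with no filter on low counts 3 (Cd22, Fcer2a and Faim3), and the fits that leave out 1 library 0 to 4. The 5 mature B members had negative log2 fold changes under every alternative that tested them (Cr2 was not tested under the stricter filter of 5 CPM in 3 libraries). The secretory members did not. Leaving out 1 library moved the log2 fold change from -0.89 to 0.31 for Igj and -0.64 to 1.41 for Sdc1. It moved from -0.98 to 1.15 for Pou2af1, -0.61 to 1.74 for Ighm and -0.99 to 0.67 for Igkc. Without both KO 2 and WT 3 (chosen after seeing the data) it was -0.55 for Igj, -0.21 for Pou2af1 and -0.38 for Igkc. For Sdc1 it was then 0.057 and for Ighm 0.21. The cause was not tested. For LSK, GMP and CFU-E in turn, 14, 145 and 108 genes were called; with DESeq2 they were 342, 300 and 182, and with no filter 38, 601 and 333. Leaving out 1 library gave 0 to 123 for LSK, 38 to 211 for GMP and 22 to 143 for CFU-E; without KO 2 and WT 3 LSK gave 0, and without the flow cell term CFU-E gave 234. The median r between mature B and secretory members, 0.04, was 0.36 within genotype, 0.43 without KO 2 and WT 3, and -0.20 to 0.43 with 1 library left out. Same-numbered KO and WT libraries correlated in their deviations by 0.0355 to 0.0855 in LSK, -0.164 to 0.252 in GMP and -0.194 to 0.271 in CFU-E. The best WT partner had the same number for GMP KO 3, CFU-E KO 1 and CFU-E KO 2, and for no LSK library. The labels state no pairing, and these values do not settle whether same-numbered libraries are paired. The replicate block gave 0 calls for LSK, 325 for GMP and, with the flow cell term, 31 for CFU-E. In LSK it gave a log2 fold change of 0.30 for Igj. Under the replicate block Stag2 lost its call in LSK (adjusted p = 0.22, edgeR) and in CFU-E (0.0804). Counts of a few reads limit GMP and CFU-E.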
